A study of Mus musculus with 4 samples.

Results

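Unfolded protein response genes were examined as a group of 10: the stress sensors Atf6, Ern1 and Eif2ak3, the transcription factor gene Xbp1, and 6 genes of folding and quality control in the endoplasmic reticulum (ER), Hspa5, Hsp90b1, Calr, Pdia4, Dnajb9 and Herpud1. They were chosen by symbol from the 22138 genes measured, and each of the 10 matched 1 row. RNA was sequenced in 4 libraries of TT2, a female mouse embryonic stem (ES) cell line of C57BL/6xCBA background, after control siRNA (siCTRL, n = 2) or siRNA against Hnrnpk (siHnrnpk, n = 2). All cells were grown without feeders in serum and the self-renewal cytokine LIF, and both groups were transfected with 100 nM and, 24 hours later, 50 nM of their siRNA and harvested about 72 hours after that. The product of Hnrnpk, hnRNP K, binds RNA and DNA, and the title of the series links it to gene silencing by the histone methyltransferase SETDB1. No clone, animal or donor is named for the replicates, so p-values measure the spread between these libraries, which may be partly technical.

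The unfolded protein response adjusts the folding capacity of the ER to the load of secreted and membrane proteins. The chaperone BiP, the product of Hspa5, holds the luminal parts of the sensors, and unfolded protein draws it away. IRE1 (Ern1) then splices the Xbp1 mRNA so that it encodes an active transcription factor, ATF6 travels to the Golgi and is cut to release one, and PERK (Eif2ak3) phosphorylates a translation initiation factor, which slows translation in general while favouring that of Atf4. Splicing, cleavage and phosphorylation are not seen in the values used here, which are 1 RPKM per gene and library (reads scaled to transcript length and library size).

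The DNA element through which ATF6 and NF-Y act on chaperone genes, the ER stress response element (ERSE), was looked for in the 250 bases before the RefSeq start of each gene (GRCm38.p6), since it marks the promoters by which this response is usually recognised. The letters searched, on both strands, were CCAAT, any 9 bases and CCACG for ERSE, and ATTGG, any 1 base and CCACG for ERSE-II, so that both contain CCACG. Of the 9 genes with a promoter entry, 3 held ERSE (Hspa5, Hsp90b1 and Calr) and 1 held ERSE-II (Herpud1). Over all 32851 promoters, 0.113% held ERSE and 0.0304% held ERSE-II, while CCACG alone was in 28.3%. The 4 promoters are printed with the matches in capitals, where CGTGG at the left of a match shows that it lies on the other strand, and Dnajb9, the gene with the largest change, is printed with its 2 CCACG matches in capitals. They lie at chr2:34771840-34772089, plus strand (Hspa5), chr10:86705445-86705694, minus strand (Hsp90b1), chr8:84846932-84847181, minus strand (Calr), chr8:94386179-94386428, plus strand (Herpud1) and chr12:44210069-44210318, minus strand (Dnajb9).
Hspa5: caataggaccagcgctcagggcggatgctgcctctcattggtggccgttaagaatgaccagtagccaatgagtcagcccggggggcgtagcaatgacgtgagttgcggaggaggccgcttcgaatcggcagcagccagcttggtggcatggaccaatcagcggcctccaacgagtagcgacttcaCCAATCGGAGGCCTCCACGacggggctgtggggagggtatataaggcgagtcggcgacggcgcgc
Hsp90b1: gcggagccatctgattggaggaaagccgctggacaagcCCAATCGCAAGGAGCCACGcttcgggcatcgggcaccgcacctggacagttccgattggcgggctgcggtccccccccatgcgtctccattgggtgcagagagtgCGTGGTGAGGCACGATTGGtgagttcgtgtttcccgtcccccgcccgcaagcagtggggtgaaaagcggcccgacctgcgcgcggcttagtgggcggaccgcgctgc
Calr: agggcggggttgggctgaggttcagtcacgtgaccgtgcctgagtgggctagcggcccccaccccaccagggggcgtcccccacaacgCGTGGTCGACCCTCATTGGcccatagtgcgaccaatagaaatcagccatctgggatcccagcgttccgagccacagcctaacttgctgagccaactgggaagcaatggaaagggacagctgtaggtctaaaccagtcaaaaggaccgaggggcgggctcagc
Herpud1: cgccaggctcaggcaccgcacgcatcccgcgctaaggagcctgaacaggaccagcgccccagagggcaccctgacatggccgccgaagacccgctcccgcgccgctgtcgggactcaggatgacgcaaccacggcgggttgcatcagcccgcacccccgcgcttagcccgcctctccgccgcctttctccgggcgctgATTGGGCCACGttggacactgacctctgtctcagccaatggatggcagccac
Dnajb9: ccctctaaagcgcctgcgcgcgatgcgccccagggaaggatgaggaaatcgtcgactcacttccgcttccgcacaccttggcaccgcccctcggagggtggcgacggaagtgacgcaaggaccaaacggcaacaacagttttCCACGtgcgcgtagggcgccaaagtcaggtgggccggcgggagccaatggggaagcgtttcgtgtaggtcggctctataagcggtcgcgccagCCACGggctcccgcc
In Hspa5 the ERSE match began 65 bases before the start, in Calr 162 bases before it on the other strand, and in Hsp90b1 the 2 matches began 212 and 107 bases before it, the latter on the other strand. The ERSE-II match of Herpud1 began 52 bases before the start. The exact letters TGACGTGG, a form of the XBP1 element (in 0.563% of all promoters), were in none of the 9 windows. The same held for TGATGNAAT, a form of the ATF4 element (in 0.816%). Other forms of these elements were not searched, so their absence is not shown. A match describes letters only, not binding.

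Hnrnpk itself stood at 236 and 226 RPKM in the siCTRL libraries and at 68.0 and 70.5 RPKM in the siHnrnpk libraries, as the labels have it. Summed RPKM were 359659 to 390467 per library, and the steps between low values put the depth of the other libraries at 0.882 to 0.981 of siCTRL replicate 1, so the siHnrnpk libraries were slightly shallower. The ES cell markers Pou5f1, Nanog, Sox2 and Zfp42 were at 145.7 RPKM or more in every library. Among all 8 pluripotency markers listed, the lowest value was 94.2 RPKM, for Klf4 in siCTRL replicate 2. The 12486 genes whose mean reached 0.5 RPKM were tested with limma on log2(RPKM + 0.5), and a gene was called where its p, adjusted over them by Benjamini-Hochberg, was under 0.05. With 2 libraries a group, an exact permutation test of 1 gene cannot go below p = 0.333, so the calls depend on limma's sharing of variance among genes.

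All 10 genes were tested, and 7 were called after siHnrnpk, close to the 67.2% of all tested genes that were called in either direction. Of the 7, 6 were higher and 1 was lower, where 32.2% of all tested genes were called higher and 35% lower. Dnajb9 and Calr roughly doubled, Hspa5, Atf6 and Eif2ak3 rose to 1.25 to 1.31 times their control level, Herpud1 rose with unequal controls, Xbp1 fell, and Hsp90b1, Pdia4 and Ern1 were not called. The median log2 change of the 10 was 0.32, beside -0.015 over all tested genes. In 7 of the 10 both siHnrnpk libraries lay above both siCTRL libraries and in 2 both lay below, beside 41.2% and 43.5% of all tested genes. In bulk RNA, a change in the number of cells that express a gene and a change in its RNA per cell cannot be told apart.

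**Figure D1:**
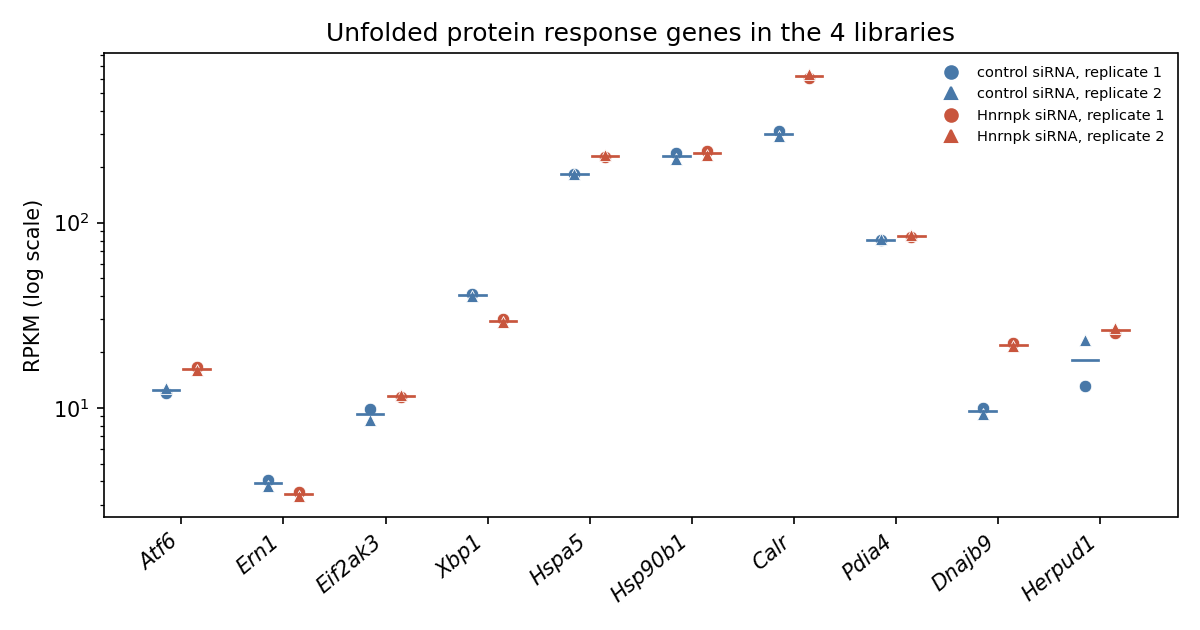
RPKM (log axis) of the 10 genes in each library, control siRNA in blue and Hnrnpk siRNA in red, with circles for replicate 1, triangles for replicate 2 and bars for the mean of each pair. Calr and Dnajb9 show the widest gaps between groups, and Herpud1 has 2 control libraries far apart, at 13.1 and 23.1 RPKM.

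Of the 3 sensor genes, Atf6 and Eif2ak3 rose and Ern1 was not called. Atf6, whose product becomes a transcription factor after cleavage, had 12.1 and 12.8 RPKM in the siCTRL libraries and 16.7 and 15.9 RPKM in the siHnrnpk libraries. The groups did not overlap, and the log2 change was 0.38 (SE 0.0694, adjusted p = 0.000932 by limma). Eif2ak3, the gene of the kinase PERK, had 9.81 and 8.59 RPKM against 11.4 and 11.7 RPKM. It rose by 0.32 on the log2 scale (SE 0.0809, adjusted p = 0.00598 by limma), a call that is lost when no genes are filtered out for low values (adjusted p = 0.0805). Of its transcript, 10.8% is shared with Gm43292 on the opposite strand. Ern1, the gene of the kinase and nuclease IRE1, had the lowest level of the 10, at 4.06 and 3.80 RPKM against 3.49 and 3.34 RPKM. Both siHnrnpk libraries were below both controls, but the log2 change of -0.18 (95% interval -0.36 to 0.01, adjusted p = 0.0852 by limma) was not called. It was -0.13 without siCTRL replicate 1 and -0.22 without siCTRL replicate 2. The summed level of the 3 sensors was 25.5 ± 0.569 RPKM after siCTRL and 31.3 ± 0.430 RPKM after siHnrnpk (SD, n = 2 each).

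Xbp1, which IRE1 splices and which ATF6 is known to induce, was the 1 gene of the group that fell. It had 41.0 and 40.1 RPKM in the siCTRL libraries and 30.1 and 29.0 RPKM in the siHnrnpk libraries. The log2 change was -0.45 (SE 0.0618, adjusted p = 0.000151 by limma), and 20.1% of all tested genes had a lower change. A single RPKM per gene does not separate spliced from unspliced Xbp1.

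The soluble chaperones of the ER lumen separated into genes that rose and genes that were not called. Calr encodes calreticulin, a calcium-binding lectin that folds glycoproteins, and it was the most abundant of the 10 by RPKM. It went from 312 and 292 RPKM to 605 and 634 RPKM, a ratio of means of 2.05 and a log2 change of 1.04 (SE 0.0721, adjusted p = 2.25e-06 by limma). A change this high or higher was rare: 3.59% of all tested genes had a higher one. Hspa5, the gene of BiP, had 182 RPKM in both siCTRL libraries and 226 and 231 RPKM in the siHnrnpk libraries. Its log2 change was 0.33 (SE 0.0625, adjusted p = 0.00123 by limma), well outside the replicate spread but smaller than that of 22.9% of all tested genes.

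Hsp90b1 encodes GRP94, the HSP90 of the ER. It stood at 236 and 220 RPKM after siCTRL and at 244 and 232 RPKM after siHnrnpk, so the groups overlapped. The log2 change was 0.063 (95% interval -0.09 to 0.22, adjusted p = 0.445 by limma), and it turned to -0.014 under quantile normalization and to -0.013 with GC trends removed. Part of its transcript (14.4%) is shared with 1810014B01Rik, annotated on the opposite strand, and with Gm25745, and use of strand in the counting was not given in the sources used here. Pdia4, a disulfide isomerase of the same chaperone complex, had 80.8 and 81.1 RPKM against 84.0 and 85.2 RPKM. The groups did not overlap, but the log2 change of 0.064 (95% interval -0.07 to 0.20, adjusted p = 0.363 by limma) was not called. Of the 3 genes whose printed promoters hold ERSE, then, Calr and Hspa5 rose and Hsp90b1, with 2 matches, was not called.

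Together Hspa5, Hsp90b1, Calr and Pdia4 made up 0.226% and 0.214% of all RPKM in the siCTRL libraries and 0.307% and 0.303% in the siHnrnpk libraries. Most of that gain was Calr. The sum over all 10 genes was 1.44 times higher after siHnrnpk, and without Calr it was 1.13 times higher, while the sum over all genes with a symbol of their own was 1.06 times higher.

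Dnajb9 encodes ERdj4, a co-chaperone that brings BiP to IRE1 and to degradation substrates. It had 9.94 and 9.25 RPKM in the siCTRL libraries and 22.3 and 21.5 RPKM in the siHnrnpk libraries. The log2 change of 1.15 (SE 0.0701, adjusted p = 1.08e-06 by limma) was the largest of the 10, and 2.93% of all tested genes had a higher one. Its promoter held neither ERSE nor ERSE-II by the letters searched.

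Herpud1 encodes a membrane protein that assembles the machinery for degrading ER proteins. It had 13.1 and 23.1 RPKM in the siCTRL libraries and 25.4 and 27.1 RPKM in the siHnrnpk libraries. The second control library was thus closer to the siHnrnpk libraries than to the first. The log2 change was 0.58 (SE 0.195, adjusted p = 0.0243 by limma), with the widest error of the 10. It was 0.18 (adjusted p = 0.0642) without siCTRL replicate 1 and 0.98 without siCTRL replicate 2, and the call was also lost without siHnrnpk replicate 2 (adjusted p = 0.0584) and with no filter on low values (adjusted p = 0.319).

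**Figure D2:**
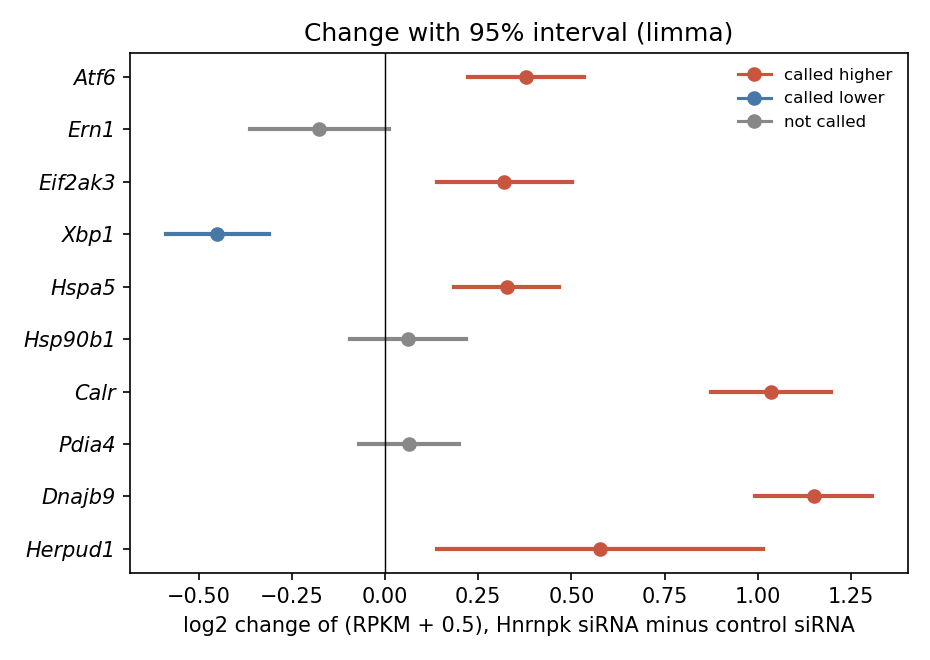
Log2 change of (RPKM + 0.5), siHnrnpk minus siCTRL, for the 10 genes, with 95% intervals from limma; red marks genes called higher, blue called lower and grey not called. Dnajb9 and Calr stand apart at 1.15 and 1.04, and Herpud1 has the widest interval.

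Control libraries as unequal as those of Herpud1 recurred in the arm below PERK, of which Herpud1 is also a known target. Of 20 tested genes of the PERK and ATF4 list, 10 (50%) were called higher and 3 (15%) lower, beside 32.2% and 35% of all tested genes (median log2 change 0.37). The counts were 10 and 5 without siCTRL replicate 1, 14 and 3 without siCTRL replicate 2, and 6 and 1 with no filter on low values. Ddit3, the gene of the transcription factor CHOP, had by far the largest change: 4.82 and 11.2 RPKM after siCTRL and 60.0 and 68.1 RPKM after siHnrnpk. The log2 change was 3.03 (SE 0.272, adjusted p = 1.01e-05 by limma), and 2.46 without siCTRL replicate 1 and 3.60 without siCTRL replicate 2. Atf4 itself, the factor that PERK activity favours, had 188 and 306 RPKM against 305 and 333 RPKM, so the groups overlapped and the log2 change of 0.41 (adjusted p = 0.0629 by limma) was not called. Without siCTRL replicate 2 it was 0.76, and without siCTRL replicate 1 it was 0.058. The change was called with median-ratio scaling (adjusted p = 0.0497 by limma) and with GC trends removed (adjusted p = 0.0370).

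Trib3, a pseudokinase induced by ATF4 and CHOP, had 18.9 and 40.3 RPKM against 50.0 and 55.3 RPKM, and Atf3, a stress transcription factor, had 1.59 and 3.56 RPKM against 6.12 and 6.65 RPKM. Both rose, with log2 changes of 0.92 and 1.24 (adjusted p = 0.0101 and 0.00116 by limma). Without siCTRL replicate 1 the log2 changes were 0.38 and 0.76, in a fit where the spread between the controls had no part. With no filter on low values neither gene was called. Ppp1r15a, the gene of GADD34, which directs removal of the phosphate that PERK adds, rose by 0.52 on the log2 scale from 14.5 and 15.5 RPKM to 20.4 and 23.0 RPKM. Ddit4, an inhibitor of mTORC1, rose by 1.33 and Sesn2, another inhibitor of that pathway, by 0.73, both with controls close together.

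In this arm siCTRL replicate 2 was the higher of the control libraries for 17 of 20 tested genes (85%), where it was the higher for 42.7% of all tested genes. This direction was not particular to this arm, as the same held for 9 of 10 mitochondrial chaperones (90%). That count takes no account of the size of the gap. In relative terms, the controls of these chaperones lay closer together than those of Ddit3, Trib3 or Chac1. For example, Lonp1 had 84.8 and 85.1 RPKM in the siCTRL libraries and Hspd1 had 306 and 354 RPKM. Chac1, a glutathione-degrading ATF4 target named here after its values were seen, stood at 8.96 and 26.7 RPKM in the siCTRL libraries and at 11.7 and 13.1 RPKM in the siHnrnpk libraries. Its log2 change was -1.08 without siCTRL replicate 1 and 0.45 without siCTRL replicate 2, so its direction depended on the control library. The 3 members that fell, also named after their values were seen, were Stc2, a secreted glycoprotein, and Psat1 and Shmt2, enzymes of serine and glycine metabolism, with log2 changes of -0.78, -0.44 and -0.37. For Stc2 the change was -1.12 without siCTRL replicate 1 and -0.44 without siCTRL replicate 2, and it was not called with no filter on low values (adjusted p = 0.174 by limma). What sets the control libraries apart was not tested.

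**Figure D3:**
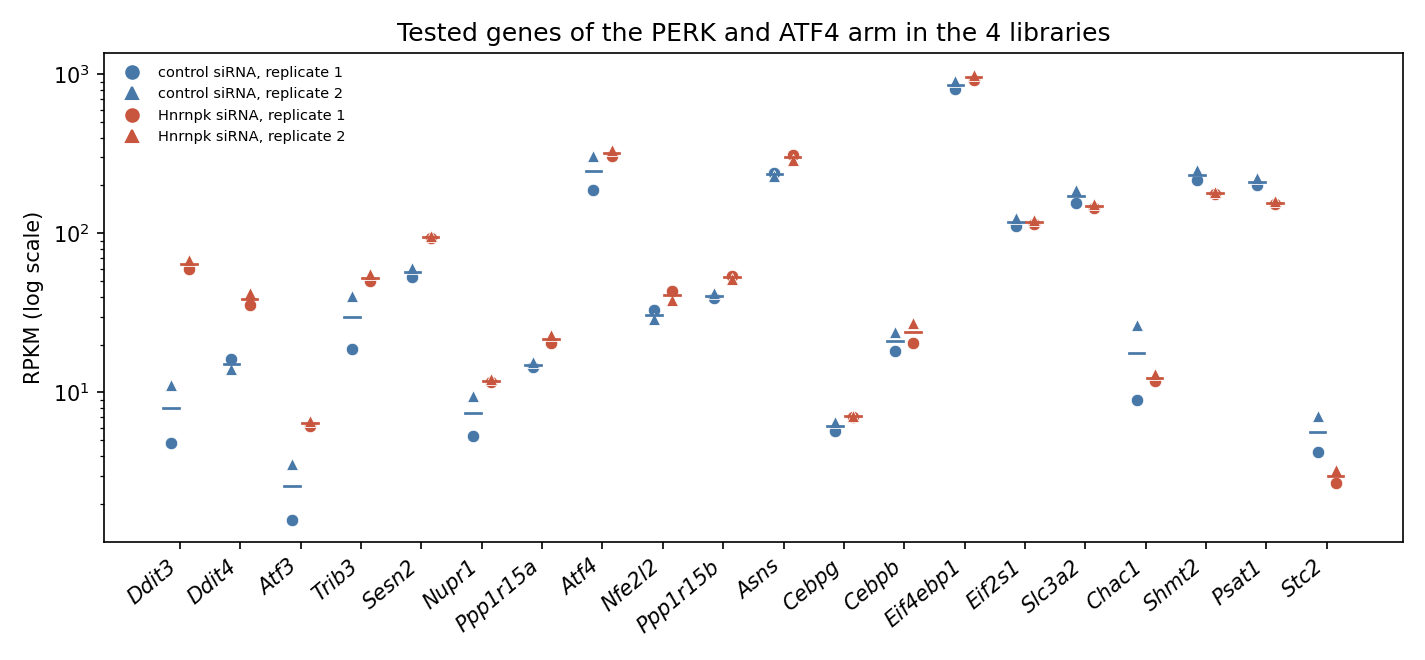
RPKM (log axis) of the 20 tested genes of the PERK and ATF4 list in each library, ordered from the highest to the lowest log2 change, with colours, symbols and bars as for the 10 genes above. Ddit3, Trib3, Atf3 and Chac1 have a control replicate 2 (blue triangle) well above control replicate 1 (blue circle), while the siHnrnpk libraries lie close together.

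Among 22 further folding factors of the ER, 15 (68.2%) were called higher and 3 (13.6%) lower, beside 32.2% and 35% of all tested genes (median log2 change 0.35). Canx, the membrane-bound partner of calreticulin, rose from 209 and 211 RPKM to 295 and 281 RPKM (log2 change 0.46, SE 0.0654, adjusted p = 0.000201 by limma). Pdia3, the disulfide isomerase that works with calreticulin and calnexin, rose by 0.33 and P4hb, the founding disulfide isomerase, by 0.50. Pdia6, a BiP-associated isomerase with ERSE in its promoter, had 90.9 and 85.9 RPKM against 83.6 and 89.7 RPKM and was not called (log2 change -0.028, 95% interval -0.18 to 0.12). Among partners of BiP, its nucleotide exchange factors went both ways: Hyou1 rose by 0.47, and Sil1, named here after its values were seen, fell from 10.5 and 9.04 RPKM to 5.76 and 5.82 RPKM (log2 change -0.71, SE 0.0868, adjusted p = 7.21e-05 by limma). The J proteins Dnajb11, Dnajc10 and Dnajc3 rose by 0.58, 0.60 and 0.24. The call of Dnajc3 was lost without siHnrnpk replicate 1 (adjusted p = 0.132). Sdf2l1, a partner of Dnajb11 and a common marker of ER stress, fell from 37.1 and 33.1 RPKM to 18.5 and 22.8 RPKM (log2 change -0.76, SE 0.0987, adjusted p = 0.000108 by limma). Txndc5, a thioredoxin-domain isomerase, fell by 0.63.

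Of 20 further genes of ER-associated degradation, 14 (70%, beside 32.2% of all tested genes) were called higher and 0 lower by limma, and 0 were lower at an unadjusted p under 0.05 too. Their median log2 change was 0.35. Derl3, a derlin of the export channel, rose from 3.58 and 3.55 RPKM to 8.38 and 8.30 RPKM (log2 change 1.12, SE 0.0756, adjusted p = 1.90e-06 by limma). H47, now called Selenos, a membrane protein that recruits the p97 ATPase, rose from 20.5 and 19.8 RPKM to 42.2 and 46.5 RPKM (log2 change 1.12). Faf2 and Sel1l, which serve extraction and the ubiquitin ligase scaffold, rose by 0.67 and 0.52. Edem1, a mannosidase-like factor often used as a readout of XBP1, had 10.8 and 9.82 RPKM against 10.4 and 10.1 RPKM and was not called (log2 change -0.0023, 95% interval -0.17 to 0.17).

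Of 18 tested relatives and regulators of the sensors, 7 (38.9%) were called higher and 6 (33.3%) lower, shares close to the 32.2% and 35% of all tested genes (median log2 change 0.092). Creb3, a membrane-bound factor activated like ATF6, rose by 0.55 and Traf2, an adaptor that binds IRE1, by 0.60. Eif2ak4, the amino acid-sensing kinase GCN2 that shares its substrate with PERK, fell from 10.8 and 10.2 RPKM to 6.69 and 6.68 RPKM (log2 change -0.61, SE 0.0728, adjusted p = 6.03e-05 by limma).

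Of 23 genes of translocation into the ER and early transport, 12 (52.2%) were called higher and 4 (17.4%) lower, beside 32.2% and 35% of all tested genes (median log2 change 0.19). The count called higher was 10 under quantile normalization and 9 with no filter on low values, and both counts varied when 1 library was left out. Of the receptors that return KDEL-tagged chaperones such as BiP, GRP94 and calreticulin from the Golgi, 1 fell and 1 rose. Kdelr2 fell from 47.7 and 46.4 RPKM to 22.3 and 22.5 RPKM (log2 change -1.05, SE 0.0612, adjusted p = 8.60e-07 by limma). Kdelr3 rose from 22.7 and 17.6 RPKM to 50.2 and 55.3 RPKM (log2 change 1.37, SE 0.107, adjusted p = 4.36e-06 by limma). Kdelr1 had 34.7 and 32.3 RPKM against 36.4 and 38.6 RPKM and was not called (adjusted p = 0.0552). The summed RPKM of the 3 receptors was 101 ± 6.18 after siCTRL and 113 ± 5.34 after siHnrnpk (SD, n = 2 each). Spcs1, a subunit of the signal peptidase, rose by 0.80.

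**Figure D4:**
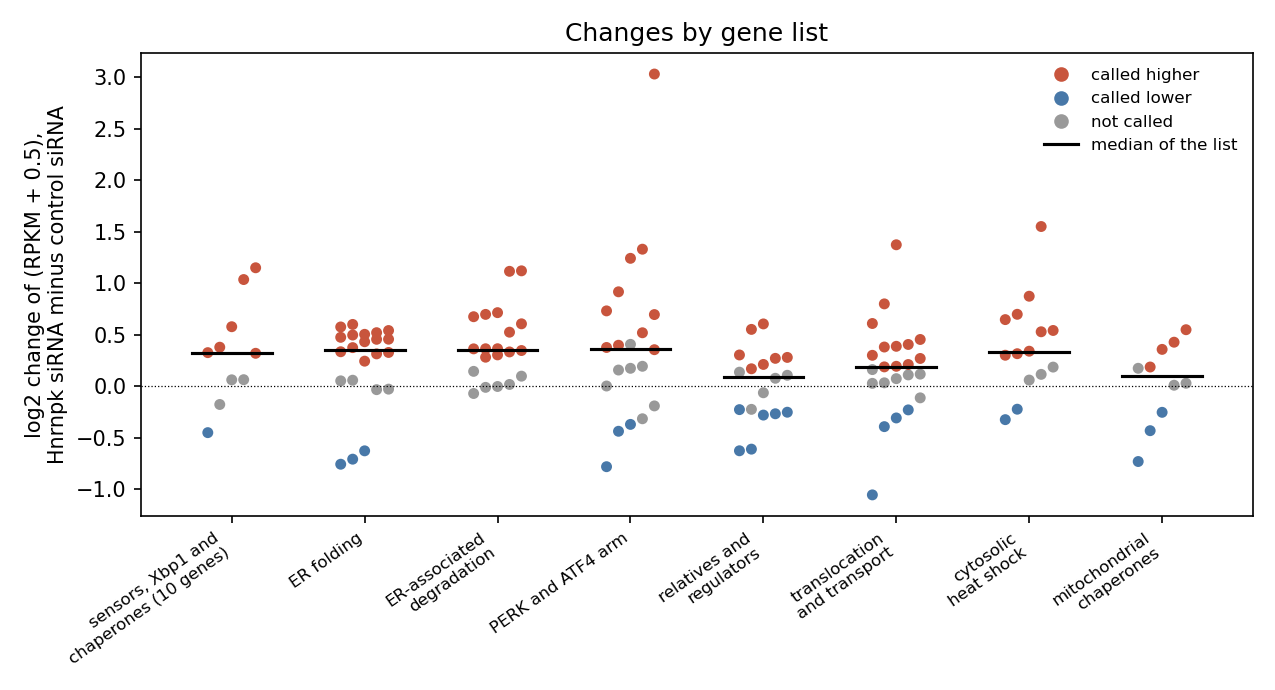
Log2 change of (RPKM + 0.5), siHnrnpk minus siCTRL, of each tested gene (points) by list, with the list median as a black bar; red marks genes called higher, blue called lower and grey not called. The degradation list has no blue point, and the highest point of all is Ddit3 at 3.03.

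The promoter element gives a grouping that uses no expression value, though it overlaps the lists above. ERSE was in the promoters of 35 genes, of which 25 were matched in the table and 16 were tested. Of these, 11 (68.8%) were called higher and 2 (12.5%) lower, beside 32.2% and 35% of all tested genes, with a median log2 change of 0.34. Without Hspa5, Hsp90b1 and Calr the counts were 9 higher and 2 lower of 13 tested, with a median of 0.35. Of these, Syvn1, the ubiquitin ligase of ER-associated degradation, Derl3, Canx, Creld2, Dnajc3 and Ero1lb were called higher and Pdia6 was not called. All of them were already counted in the folding and degradation lists. Among the genes outside those lists, Alg12, Hnrnpa3 and Zfp57 were called higher and Acacb was not called. Adcy3, an adenylyl cyclase, and Pan2, a deadenylase subunit, were called lower, so the genes outside those lists went both ways.

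Markers of cell types were measured in the same comparison, in which 32.2% of all tested genes were called higher and 35% lower. Of primitive endoderm markers, 8 of 11 tested (72.7%) were called higher and 2 (18.2%) lower. The list includes basement membrane genes, which went both ways. Col4a1 and Col4a2 were called higher, Lamb1 and Lamc1 were called lower, and Lama1 was not called. The summed level of the list was 271 and 276 RPKM after siCTRL and 378 and 388 RPKM after siHnrnpk. Most of that gain was Sparc, at 143 and 146 RPKM after siCTRL and 235 and 246 RPKM after siHnrnpk. Trophectoderm markers were called higher in 6 of 6 tested, from a sum of 37.4 and 41.7 RPKM to one of 86.2 and 89.9 RPKM. The largest parts of both sums were the keratin genes Krt18 and Krt8. Krt18 had 15.8 and 18.9 RPKM after siCTRL and 30.9 and 33.2 RPKM after siHnrnpk. Krt8 had 10.8 and 13.7 RPKM against 21.2 and 23.7 RPKM. Two-cell stage markers were called higher in 6 of 6 tested, from a sum of 0.618 and 0.547 RPKM to one of 29.7 and 33.9 RPKM. These 6 two-cell stage markers, and Pdgfra of the primitive endoderm list, were under 0.5 RPKM in both siCTRL libraries. They reached the mean of 0.5 RPKM needed for testing only through the siHnrnpk libraries, so the filter fixed their direction. Fibroblast markers were called higher in 0 of 3 tested by limma (also 0 at an unadjusted p under 0.05) and lower in 2, with sums of 10.4 and 8.79 RPKM against 5.05 and 5.31 RPKM. Of 8 pluripotency markers 2 (25%), Nanog and Dppa5a, were called higher and 2 (25%), Sox2 and Tdgf1, lower. Both shares were below those of all tested genes. No marker was listed at 0 in all 4 libraries, but Sox17, Foxa2, Pdgfra and Cubn of the primitive endoderm list and Cdx2 and Elf5 of the trophectoderm list stayed under 1 RPKM throughout. Of these 6, Pdgfra was tested and called higher; the others were not tested, and the siHnrnpk libraries lay above the siCTRL libraries in each but Elf5. The part of these cell types in the levels of the unfolded protein response genes was not tested.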

How the data were processed

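RNA-seq values of 2 siCTRL and 2 siHnrnpk libraries were used. The authors deposited 1 table of RPKM per gene with a column for each library. Per the submitters' processing notes, BWA, SAMtools and the build mm9 were used, with counting tool, annotation and strand setting not given in the sources used here. Labels call the RNA both rRNA-depleted and poly(A)-selected. RPKM are not counts, so no count model was run; relative depth was read from the commonest ratio between libraries among genes under 0.05 RPKM, and the absolute depth was not recovered.

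Genes whose mean reached 0.5 RPKM were compared on log2(RPKM + 0.5), which understates the change of low genes, with limma 3.58.1 in R 4.3.3 (mean-variance trend, two-sided, Benjamini-Hochberg); the fit was tested on simulated data. The members and lists were chosen with earlier results of these data known. Named genes are the members, Hnrnpk, 16 fixed names and the 3 non-overlapping called genes of lowest p in each list; other genes were chosen after their values were seen. Of the listed symbols, Spcs3, Tcstv1 and Tcstv3 were not analysed here. Promoters come from RefSeq GRCm38.p6, matched by symbol for 9 of 10 genes (all but Atf6), and motifs were searched by exact letters. For 7 of the 9, bases just after the start were found in a GENCODE M21 transcript of the gene. For the others they were not, so the place of those windows is less certain. Transcripts were compared with GENCODE M21 by BLAST 2.17.0 (95% identity over at least 100 bases). The planned grouping by ER retrieval signal was not run, since no protein sequences were used here.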

Additional observations from a re-analysis of the deposited data

How the results depend on the processing

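The counts of unfolded protein response genes called were recomputed with 13 alternatives: another added value, filter, scaling, GC correction or variance trend, a replicate block, or 1 library fewer. The count called higher lay within 1.5 times of 6 in each, at 4 to 6, and the count called lower was 1 except without 1 library at a time, where it lay between 1 and 2. With no filter on low values, the PERK and ATF4 list had 6 called higher and 1 lower, cytosolic heat shock 1 lower and mitochondrial chaperones 2 higher; cytosolic heat shock also had 1 lower with GC trends removed and with no mean-variance trend. Without 1 library at a time, genes called lower numbered 3 to 5 in the PERK and ATF4 list, 2 to 4 in translocation and transport and 1 to 2 in cytosolic heat shock. The cause was not tested. The other counts stayed within 1.5 times of their main value. No scaling moved the median of all tested genes by over 0.1.

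Of 130 values of the 10 members under the alternatives, 123 kept direction and call. Direction turned for Hsp90b1 (-0.014 under quantile normalization, -0.013 with GC trends removed), Hspa8 (-0.058 under quantile normalization), Edem1 (0.0062 with median ratios, 0.019 under quantile normalization, -0.066 to 0.061 without 1 library at a time), Pdia6 (-0.078 to 0.023 without 1 library at a time) and Chac1 (-1.08 to 0.45 without 1 library at a time).

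Replicate numbers are shared between the groups in the labels but are not said to mark a shared culture, and same-numbered libraries deviated with a correlation of 0.0267, so the block was not taken as a pairing. With the replicate block, 6 members were called higher and 1 lower, and 8622 genes were called in all, against 8396 without it. Of the single genes, the block changed the call of Atf4 (log2 change 0.41, adjusted p = 0.000189 by limma) and Hspd1 (0.17, adjusted p = 0.0353), both then called higher. Where a fit left 1 library in a group, that library was assumed to vary like the other group.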

Other observations

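Chaperones outside the ER were measured in the same fit. Of 14 genes of the cytosolic heat shock response, 9 (64.3%) were called higher and 2 (14.3%) lower, beside 32.2% and 35% of all tested genes (median log2 change 0.33), with 1 lower without siCTRL replicate 1 or either siHnrnpk replicate. Hspb1, a small heat shock protein, rose from 130 and 124 RPKM to 379 and 367 RPKM (log2 change 1.55, SE 0.0653, limma adjusted p = 1.39e-07). Hspa1a, the inducible HSP70, rose from 0.995 and 1.04 RPKM to 2.21 and 2.36 RPKM, and Hsp90aa1, the inducible HSP90, from 587 and 614 RPKM to 1001 and 949 RPKM. Hspa8, the constitutive HSP70, had 296 and 278 RPKM against 294 and 305 RPKM and was not called (log2 change 0.060, 95% interval -0.09 to 0.21).

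Of 10 mitochondrial chaperones and proteases, 4 (40%) were called higher and 3 (30%) lower, shares close to the 32.2% and 35% of all tested genes (median log2 change 0.10). Trap1, the mitochondrial HSP90, fell from 141 RPKM in both siCTRL libraries to 82.2 and 87.1 RPKM (log2 change -0.73, SE 0.0628, limma adjusted p = 7.84e-06), and Afg3l2, a subunit of an inner membrane protease, fell by 0.43. Clpp, the protease of the matrix, rose by 0.55. Hspd1, the chaperonin HSP60, had 306 and 354 RPKM against 382 and 362 RPKM and was not called (log2 change 0.17, limma adjusted p = 0.0887). Its log2 change was 0.069 without siCTRL replicate 1 and 0.28 without siCTRL replicate 2.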
